A study of Mus musculus with 20 samples.

Results

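Prostaglandins are lipid signals made from arachidonic acid in consecutive steps, and 10 genes of this route were followed in the condylar head of the mouse temporomandibular joint (TMJ), out of 54532 genes in the count table. The 10 were chosen by name for their function: the cyclooxygenases *Ptgs1* and *Ptgs2*, the prostaglandin E2 (PGE2) synthases *Ptges* and *Ptges2*, the prostacyclin synthase *Ptgis*, the prostaglandin D2 synthase *Ptgds*, the prostaglandin-inactivating dehydrogenase *Hpgd*, and the PGE2 receptors *Ptger2* (EP2), *Ptger3* (EP3) and *Ptger4* (EP4). RNA came from 20 mice, each sequenced as 1 library, with 8 labelled Control and 12 labelled LOXL2_KO. Every animal was *Acan-Cre;Loxl2* fl/fl, carrying *Loxl2* flanked by loxP sites together with a tamoxifen-inducible Cre (CreERT2) expressed from the aggrecan (*Acan*) locus, so that recombination was directed to aggrecan-expressing cells. Controls received vehicle and the other animals tamoxifen (75 mg/kg in corn oil), starting at 6 months of age, with 5 daily injections followed by monthly ones, and tissue was collected after 4 months. The drug and the deletion therefore cannot be told apart. The dissected condylar head kept part of the subchondral bone, and the samples are bulk RNA, in which fewer cells of a type and less RNA per cell cannot be told apart.

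As background, cyclooxygenases turn arachidonate, which phospholipases release from membranes, into prostaglandin H2, and terminal synthases turn that into PGE2, prostacyclin, prostaglandin D2 or thromboxane. COX-1 (*Ptgs1*) is the constitutive enzyme, and COX-2 (*Ptgs2*) is induced by interleukin-1 and other inflammatory signals. PGE2 acts through EP receptors on chondrocytes, osteoblasts, osteoclast precursors and sensory nerves, and is known in joints for its part in pain, cartilage matrix turnover and bone remodelling.

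Library totals ran from 11153820 to 27045668 counts, and no difference between the groups passed (exact two-sided permutation test over 125970 assignments, p = 0.503). *Loxl2* mRNA was not lower in the libraries labelled LOXL2_KO. Its level was 16.001 to 103 CPM in controls and 28.8 to 126 CPM in the others. CPM is a gene's count scaled to the size of its library, after TMM correction for composition. The log2 fold change was 0.64 (SE 0.28, adjusted p = 0.101 by edgeR, n = 8 and 12). Mean log2 CPM was higher by 0.77 in LOXL2_KO (exact permutation test, p = 0.0271). The study reports less LOXL2 protein in its knockout mice by immunohistochemistry. These RNA counts cover the whole dissected tissue and do not measure that protein. Groups are therefore named by their labels, and every direction below is the library labelled LOXL2_KO against the library labelled Control. Cartilage markers were present (*Acan*, mean 115 CPM in controls and 71.3 CPM in LOXL2_KO; *Col2a1*, 562 and 1114 CPM), but in control 8 the 10 chondrocyte markers summed to 101.4 CPM, against at least 1510.5 CPM in every other library. The tissue also held muscle and bone RNA in amounts that moved with the labels. The 10 skeletal muscle markers summed to 52743 to 187990 CPM in controls and 37188 to 96928 CPM in LOXL2_KO, with 4 of the 10 lower, and the 10 osteoclast markers summed to 183 to 1485 CPM and 665 to 8093 CPM, with 10 of 10 higher. The 9 osteoblast and osteocyte markers summed to 178 to 1848 CPM and 301 to 3896 CPM, with 4 of 9 higher, and no marker in these lists was at 0 in all libraries. By the same edgeR test, 12% of all genes tested were higher and 11% lower. Control libraries 6 and 8 had the lowest bone sums among the controls (234 and 178 CPM), and LOXL2_KO libraries 4, 5 and 7 had fibroblast marker sums of 808, 545 and 879 CPM where no other library exceeded 370 CPM.

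Sequence context was read for the members from the RefSeq promoter table (GRCm38.p6), which held 9 of the 10 genes, all but *Ptgis*. The 250 bases before the annotated start are shown for *Ptgs2*, the inducible cyclooxygenase, and for *Hpgd* and *Ptger4*, which passed the expression test below. They are written 5′ to 3′ on the gene's strand, with capitals marking matches to any of 8 motifs searched on both strands.
Ptgs2 (chr1:150099781-150100030, plus strand): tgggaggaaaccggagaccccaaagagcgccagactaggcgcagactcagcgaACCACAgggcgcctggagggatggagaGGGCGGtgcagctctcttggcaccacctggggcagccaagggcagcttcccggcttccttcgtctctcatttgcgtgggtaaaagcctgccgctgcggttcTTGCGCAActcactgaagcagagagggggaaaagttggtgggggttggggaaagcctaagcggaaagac
Hpgd (chr8:56294302-56294551, plus strand): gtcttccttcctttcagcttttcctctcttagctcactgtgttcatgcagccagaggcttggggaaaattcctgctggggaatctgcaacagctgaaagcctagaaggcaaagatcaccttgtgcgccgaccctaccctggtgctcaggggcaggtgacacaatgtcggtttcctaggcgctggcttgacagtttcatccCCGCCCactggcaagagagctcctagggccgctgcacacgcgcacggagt
Ptger4 (chr15:5244188-5244437, minus strand): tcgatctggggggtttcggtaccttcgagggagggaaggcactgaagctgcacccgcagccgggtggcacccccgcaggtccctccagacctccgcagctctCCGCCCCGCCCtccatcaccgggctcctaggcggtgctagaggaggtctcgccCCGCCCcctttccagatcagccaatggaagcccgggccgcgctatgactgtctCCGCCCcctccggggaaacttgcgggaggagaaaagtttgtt
The motifs were the TATA box (TATAAA, in 12.4% of 32851 promoter windows of this length), the GC box (GGGCGG, 32.7%), the E-box (CACGTG, 6.02%), a CRE half-site (TGACG, 17.8%), a C/EBP palindrome (TTGCGCAA, 0.164%), the AP-1 site (TGANTCA, 6.75%), the RUNX core (TGTGGT, 14%) and the NF-kB consensus by name (7.25%). Counting back from -1 at the base before the start, the *Ptgs2* window held a RUNX core at -197 to -192, a GC box at -170 to -165 and the C/EBP palindrome at -69 to -62. The *Hpgd* window held 1 GC box, and the *Ptger4* window held 4, of which the pair at -148 to -138 overlaps by 1 base. Of the 9 windows, 5 held a GC box and none held TATAAA or TGACG. Bases after the annotated start were not searched, so a motif missing from a window can still lie close to it. These matches are descriptions of letters, and the motifs were chosen after expression values had been seen.

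The comparison of LOXL2_KO with Control asked whether the prostaglandin genes changed with the labelled deletion. A gene passed where edgeR's quasi-likelihood test gave a Benjamini-Hochberg adjusted p under 0.05, and fold changes are log2 values with their SE. All 10 members passed the filter on low counts, and 3 passed the test, each of them higher: *Ptgis*, *Hpgd* and *Ptger4*. Over all 15984 genes tested, 3673 passed (23%), with 1918 higher (12%) and 1755 lower (11%). The log2 fold change was above 0 for 9 members and below 0 for 1, with a median of 0.58, against a median of -0.02 over all genes tested. No member had groups that did not overlap, as was the case for 48 genes tested (0.3%).

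**Figure D1:**
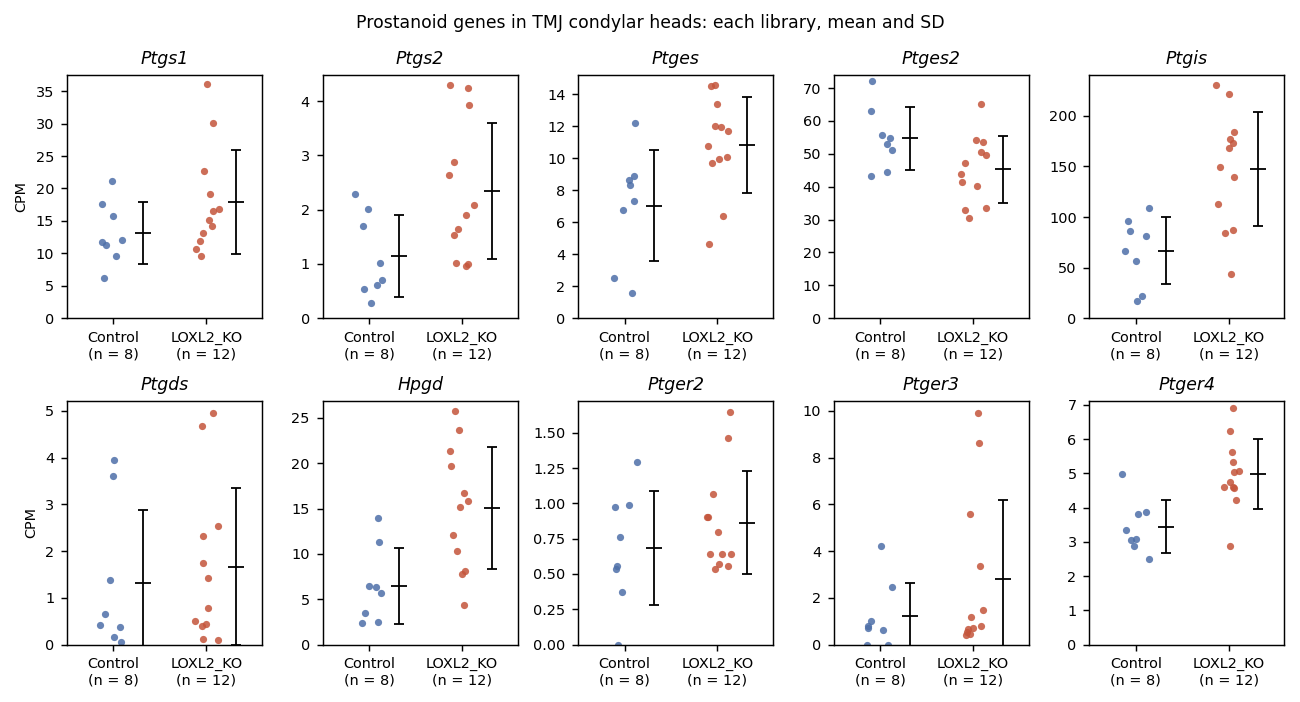
CPM values (TMM-scaled, linear axes from 0) of the 10 members in each of 8 Control and 12 LOXL2_KO libraries, with the mean and SD beside the points (lower bars are cut at 0). In *Ptgis*, 9 LOXL2_KO libraries lie above the highest control at 108.5 CPM, while in *Ptgds* the ranges nearly coincide.

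The cyclooxygenases did not pass the test. *Ptgs1* (ENSMUSG00000047250, chr2:36230426-36252272, GRCm38) was the more abundant, at 6.12, 11.9 and 21.2 CPM (lowest, median, highest) in controls and 9.61, 15.8 and 36.1 CPM in LOXL2_KO. The ranges overlapped, and the 3 LOXL2_KO libraries above every control were 4, 7 and 5, the same 3 that had the high fibroblast sums. Its log2 fold change was 0.45 (SE 0.25, adjusted p = 0.193), and 0.10 without those 3 libraries. *Ptgs2* (ENSMUSG00000032487, chr1:150100031-150108227) was low, at 0.28, 0.87 and 2.29 CPM in controls and 0.96, 1.999 and 4.29 CPM in LOXL2_KO, which rests on 4 to 94 counts per library. All 12 LOXL2_KO libraries lay above the control median, 5 lay above the highest control, and 4 of 8 controls lay below the lowest LOXL2_KO library. The log2 fold change was 1.01 (SE 0.40, n = 8 and 12) with an edgeR adjusted p of 0.0681, just outside the threshold of 0.05. The study states in its discussion that *Ptgs2* was upregulated in its knockout mice, and it used the DESeq2 Wald test for its RNA-seq data. Run here, the DESeq2 Wald test gave the same fold change with adjusted p = 0.0389. On simulated counts with few changed genes, 18.6% of DESeq2 calls were false, against 5.81% for edgeR. That simulation changed 200 of 15984 genes, where 3673 passed in the data. Its shares therefore do not tell whether the *Ptgs2* call is false. Over the 16 other settings tried the adjusted p of *Ptgs2* ran from 0.0389 to 0.669, and 1 passed. With each of the 20 libraries left out in turn, *Ptgs2* passed in 3 edgeR fits (adjusted p from 0.0318 to 0.125). Per library, COX-2 was a small part of cyclooxygenase mRNA, with a *Ptgs2* to *Ptgs1* ratio (per kb of exon) of 0.0111 to 0.165 in controls (median 0.0693) and 0.0359 to 0.254 in LOXL2_KO (median 0.103).

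Neither PGE2 synthase passed the test. *Ptges* (ENSMUSG00000050737, chr2:30889471-30929863), the inducible microsomal enzyme that works with COX-2, was at 1.59, 7.84 and 12.2 CPM in controls and 4.65, 11.2 and 14.6 CPM in LOXL2_KO. Controls 6 and 8 were the lowest of all 20 libraries, and 10 of 12 LOXL2_KO libraries lay above the control median. Its log2 fold change was 0.62 (SE 0.28, adjusted p = 0.115), and 0.31 without controls 6 and 8. *Ptges2* (ENSMUSG00000026820, chr2:32395896-32405772), a constitutive, membrane-associated synthase, was the only member with a fold change below 0. It was at 43.4, 53.8 and 72.0 CPM in controls and 30.4, 45.6 and 65.2 CPM in LOXL2_KO, and the control median exceeded 10 of the 12 LOXL2_KO values. The log2 fold change was -0.27 (SE 0.13, adjusted p = 0.134).

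*Ptgis* (ENSMUSG00000017969, chr2:167191805-167240604), which makes prostacyclin, rose. Its level was 17.2, 74.2 and 108.5 CPM in controls and 43.7, 159 and 230.2 CPM in LOXL2_KO, with means of 66.9 ± 33.2 CPM (SD, n = 8) and 147 ± 56.6 CPM (SD, n = 12). Of the 12 LOXL2_KO libraries, 11 lay above the control median and 9 above the highest control, and the lowest was LOXL2_KO 5. The log2 fold change was 1.14 (SE 0.33, adjusted p = 0.0162). *Ptgds* (ENSMUSG00000015090, chr2:25466709-25470046), known from brain and its coverings, varied more within groups than between them. It was at 0.06, 0.53 and 3.94 CPM in controls and 0.10, 1.10 and 4.96 CPM in LOXL2_KO, with a log2 fold change of 0.33 (SE 0.72, adjusted p = 0.780). That value rested on single libraries: with 1 library left out it ran from 0.051 (without LOXL2_KO 12) to 0.79 (without control 6).

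*Hpgd* (ENSMUSG00000031613, chr8:56294585-56321043), which oxidises PGE2 to an inactive form, rose. It was at 2.35, 5.97 and 13.96 CPM in controls and 4.39, 15.5 and 25.7 CPM in LOXL2_KO, with means of 6.49 ± 4.17 CPM (SD, n = 8) and 15.1 ± 6.72 CPM (SD, n = 12). Of 12 LOXL2_KO libraries, 11 lay above the control median and 7 above the highest control. The log2 fold change was 1.21 (SE 0.35, adjusted p = 0.0176). Set against *Ptges*, the *Ptges* to *Hpgd* ratio per kb had a median of 0.448 in controls (0.207 to 1.25) and 0.299 in LOXL2_KO (0.168 to 0.626). The ranges overlapped, and the ratio was not tested. It leaves out *Ptges2*, the more abundant PGE2 synthase per kb, and is no measure of synthesis against breakdown.

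Of the PGE2 receptors, only *Ptger4* passed. *Ptger4* (ENSMUSG00000039942, chr15:5206661-5244187), which raises cyclic AMP, was at 2.49, 3.21 and 4.98 CPM in controls and 2.89, 4.89 and 6.89 CPM in LOXL2_KO, and 11 of 12 LOXL2_KO libraries lay above the control median. Its means were 3.44 ± 0.78 CPM (SD, n = 8) and 4.98 ± 1.01 CPM (SD, n = 12), and its log2 fold change was 0.53 (SE 0.16, adjusted p = 0.0202), smaller than those of *Ptgis* and *Hpgd* but with less spread between libraries. On the opposite strand, 15.3% of its exon bases are shared with the pseudogene Gm15937, so that without stated strand use its counts are uncertain; for *Ptgis*, *Ptgs1* and *Ptger2* the shares with antisense or unclassified genes were at most 6.08% for any 1 gene. *Ptger2* (ENSMUSG00000037759, chr14:44988195-45003820), which also raises cyclic AMP, was at 0, 0.66 and 1.29 CPM in controls and 0.53, 0.72 and 1.64 CPM in LOXL2_KO (log2 fold change 0.33, SE 0.40, adjusted p = 0.581). The library at 0 was control 8, without which the log2 fold change was 0.16; without control 5 it was 0.52. *Ptger3* (ENSMUSG00000040016, chr3:157566892-157645888), which lowers cyclic AMP, was at 0, 0.74 and 4.22 CPM in controls and 0.40, 0.98 and 9.91 CPM in LOXL2_KO. Its 3 highest libraries were LOXL2_KO 4, 7 and 5 (9.91, 8.65 and 5.57 CPM). Its log2 fold change was 1.21 (SE 0.79, adjusted p = 0.276), and -0.20 without those 3 libraries.

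**Figure D2:**
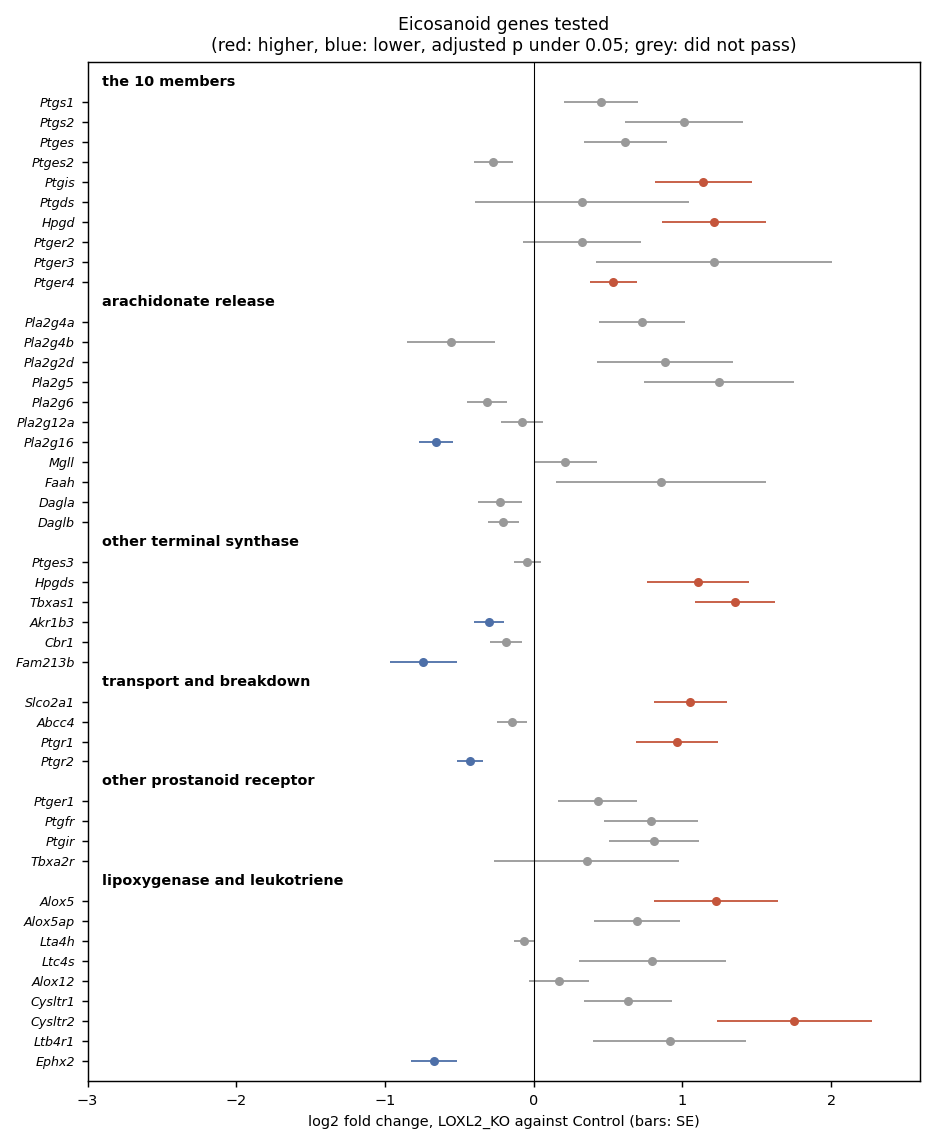
log2 fold change (LOXL2_KO against Control) with its SE for the 10 members and the 34 tested genes of the wider eicosanoid list, arranged by role. Points in red (higher) and blue (lower) passed at an adjusted p under 0.05 and grey points did not; *Cysltr2* lies highest at 1.75, and *Fam213b* lowest at -0.74.

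The 3 calls did not hold under every setting. *Ptgis*, *Hpgd* and *Ptger4* passed with each of the 20 libraries left out in turn, with log2 fold changes of 1.01 to 1.28, 1.10 to 1.47 and 0.48 to 0.63. Without controls 6 and 8, none of the 3 passed: *Ptgis* had a log2 fold change of 0.83 (adjusted p = 0.0529), *Hpgd* 0.96 (0.0866) and *Ptger4* 0.44 (0.105). With the osteoclast marker score as a covariate, no gene of 15984 passed (1310 had an unadjusted p under 0.05), and the log2 fold changes were 0.06 for *Ptgis*, -0.22 for *Hpgd* and 0.58 for *Ptger4*. Of that score's variance, 58.2% lay between the groups, so this covariate and the labels overlap in what they describe. With the skeletal muscle score, whose variance was 30.4% between groups, the 3 values were 0.58, 0.40 and 0.57, and with the osteoblast and osteocyte score 0.33, 0.50 and 0.54, and none passed. Over the 16 other settings the adjusted p ran from 0.0022 to 0.982 for *Ptgis*, 0.0027 to 0.924 for *Hpgd* and 0.0104 to 0.556 for *Ptger4*. Among these 3 genes the log2 fold change of *Ptger4* had the narrowest range, from 0.41 to 0.67, and its adjusted p passed in 7 of the 16 settings; *Ptgis* and *Hpgd* passed in 11.

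**Figure D3:**
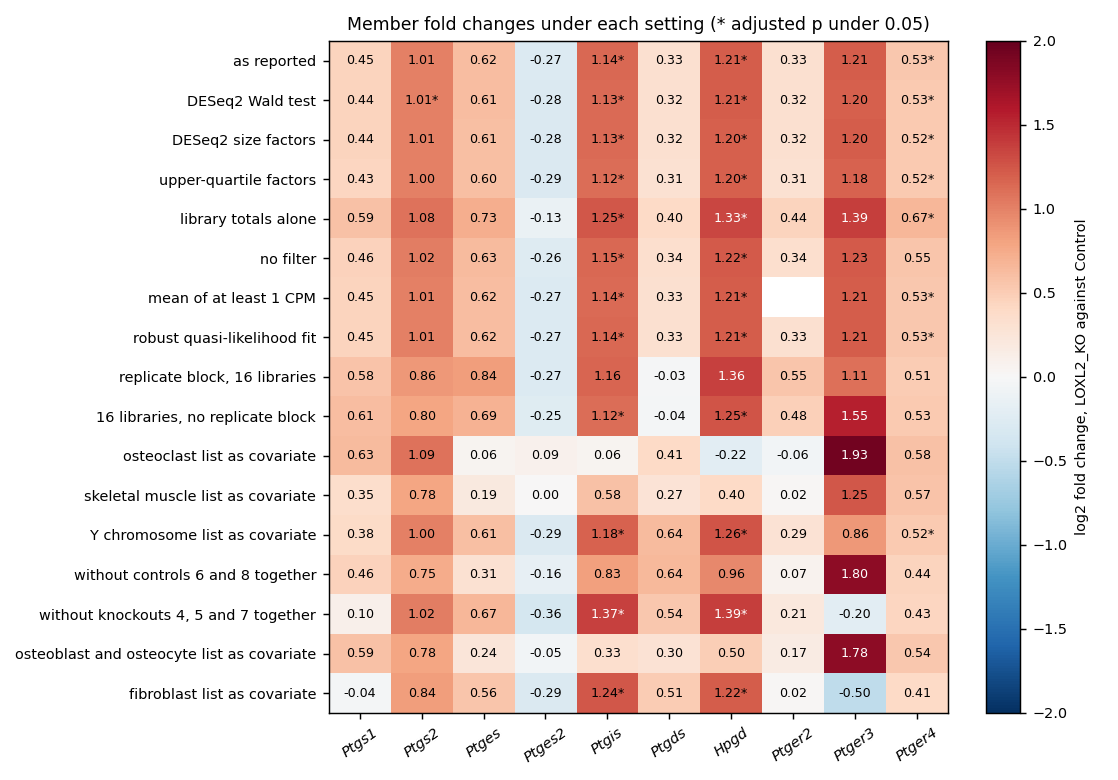
log2 fold changes of the 10 members (columns) as reported and under each other setting (rows), with an asterisk where the adjusted p was under 0.05 and a blank where the gene was filtered out. *Ptgis* goes from 1.14 as reported to 0.06 with the osteoclast covariate, while *Ptger4* stays between 0.41 and 0.67.

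Within each group, members were set against marker scores (mean z of log2 CPM over a list) of 6 lists. Over the 120 relations computed, 5 Pearson values in controls and 10 in LOXL2_KO passed a permutation test after Benjamini-Hochberg adjustment, as did 4 and 8 Spearman values. *Ptgis* followed the osteoblast and osteocyte score in both groups: r = 0.97 in the 8 controls (adjusted exact permutation p = 0.00833; rho = 0.93, adjusted p = 0.0383) and r = 0.96 in the 12 LOXL2_KO libraries (adjusted permutation p = 0.0018; rho = 0.94, adjusted p = 0.0036). Without the 2 libraries farthest from the median score, r was 0.80 and 0.88. It also passed with the chondrocyte score in controls (r = 0.94, adjusted exact permutation p = 0.0158; rho = 0.79, adjusted p = 0.14; r = 0.67 without the 2 farthest) and with the osteoclast score in LOXL2_KO (r = 0.77, adjusted permutation p = 0.0279; rho = 0.78, adjusted p = 0.0456; r = 0.54 without the 2 farthest). *Hpgd* followed the osteoclast score, with r = 0.92 in controls (adjusted exact permutation p = 0.0127; rho = 0.90, adjusted p = 0.0456; r = 0.94 without the 2 farthest) and r = 0.76 in LOXL2_KO (adjusted permutation p = 0.0351; rho = 0.78, adjusted p = 0.0456; r = 0.72 without the 2 farthest). In LOXL2_KO *Hpgd* also followed the osteoblast and osteocyte score, with a larger coefficient (r = 0.84, adjusted permutation p = 0.0157; rho = 0.88, adjusted p = 0.012) that was 0.55 without the 2 farthest libraries, and it ran against the skeletal muscle score (r = -0.84, adjusted permutation p = 0.00833; rho = -0.88, adjusted p = 0.012; r = -0.90 without the 2 farthest). *Ptges2* went with the muscle score in LOXL2_KO (r = 0.84, adjusted permutation p = 0.0127; rho = 0.87, adjusted p = 0.0159; r = 0.89 without the 2 farthest); in controls r was 0.68 (adjusted exact permutation p = 0.202) and rho 0.90 (adjusted p = 0.0456). In controls, *Ptgs1* passed with the fibroblast score (r = 0.85, adjusted exact permutation p = 0.0423) and *Ptger2* with the macrophage score (r = 0.85, adjusted exact permutation p = 0.0423), but both rested on the 2 farthest libraries (r = 0.43 and 0.44 without them), and neither passed by Spearman (rho = 0.86, adjusted p = 0.0714; rho = 0.79, adjusted p = 0.14). *Ptger2* passed with the osteoclast score in controls by Spearman alone (rho = 0.93, adjusted exact permutation p = 0.0383; r = 0.71, adjusted p = 0.202). *Ptgs2* and *Ptger4* passed with none of the 6 lists in either group. *Ptgs1* and *Ptger3* were highest in LOXL2_KO libraries 4, 5 and 7, which form a cluster apart on the fibroblast score. Both passed with that score in LOXL2_KO, and only rank values are given (rho = 0.82 and 0.78, adjusted permutation p = 0.0383 and 0.0456). Both also passed with the macrophage score in LOXL2_KO by Pearson (r = 0.83 and 0.77, adjusted permutation p = 0.0114 and 0.0351, 0.72 without the 2 farthest for each). By Spearman neither passed there (rho = 0.76 and 0.67, adjusted p = 0.0511 and 0.124). Libraries 4, 5 and 7 also had the highest macrophage scores of that group. Between members, 90 relations were computed, and 3 pairs passed by Pearson in LOXL2_KO. *Ptgis* with *Hpgd* had r = 0.82 (adjusted permutation p = 0.0426, 0.62 without the 2 farthest, rho = 0.79 with adjusted p = 0.157). *Ptges2* with *Hpgd* had r = -0.87 (adjusted permutation p = 0.0135, -0.79 without the 2 farthest, rho = -0.85 with adjusted p = 0.0774). *Ptgs1* with *Ptger3*, both highest in libraries 4, 5 and 7, had r = 0.84 (adjusted permutation p = 0.0315, 0.62 without the 2 farthest, rho = 0.66 with adjusted p = 0.286). No pair passed in controls, and none passed by Spearman in either group.

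**Figure D4:**
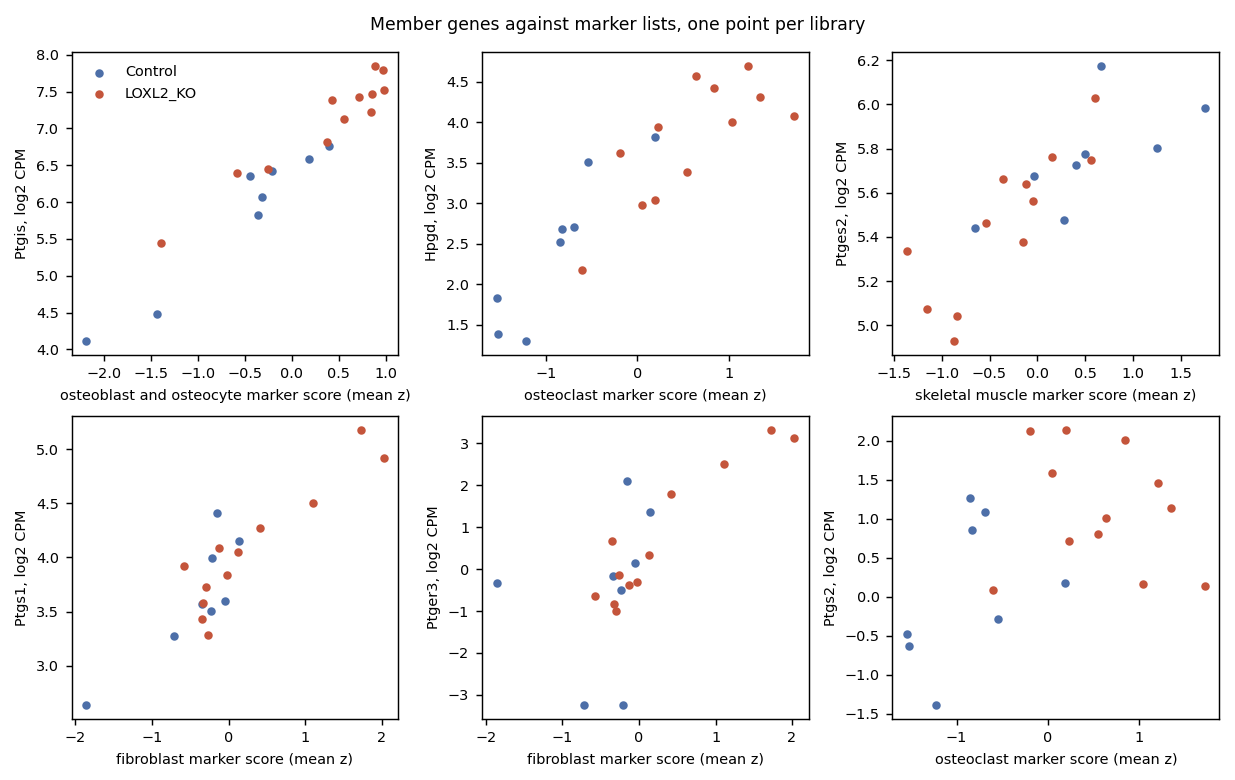
log2 CPM of a member (vertical) against a marker score (horizontal, mean z) for 6 pairs, 1 point per library. *Ptgis* climbs with the osteoblast and osteocyte score in both groups, *Ptgs2* shows no order with the osteoclast score, and the 3 LOXL2_KO points at the right of the fibroblast panels are libraries 4, 5 and 7.

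For each member, the protein-coding genes with the most similar group-centred log2 CPM over 20 libraries were looked up among 10755 or 10756 genes. These coefficients are descriptions, and all points share the tissue mixture of their library. *Ptgis* was closest to *Ibsp* (r = 0.98), *Sparc* (0.98) and *Alpl* (0.97), which encode bone matrix proteins and the mineralising phosphatase. *Hpgd* was closest to *Tmem176b* (0.91), *Serpinf1* (0.91) and the osteocalcin gene *Bglap* (0.90). *Ptges2* was closest to the respiratory chain genes *Cyc1* (0.95) and *Ndufs7* (0.94) and to *Esrra* (0.94), a nuclear receptor of mitochondrial metabolism, and mitochondrially encoded genes held 15.2 to 23.1% of counts in controls and 9.06 to 18.3% in LOXL2_KO. *Ptges* was closest to *Scpep1* (0.88), *Vasn* (0.88) and *Antxr1* (0.87), *Ptgs1* to *Cdon* (0.94), *Man1a* (0.91) and *Ugdh* (0.91), and *Ptger3* to *Gm2000* (0.89), *Vsig4* (0.86) and *Fgl2* (0.83). *Ptgs2* had weaker neighbours, *Itgbl1* (0.69), *Steap2* (0.67) and *Nxt2* (0.67), and *Ptger4* had *Slc18b1* (0.77), *Podn* (0.75) and *Sidt2* (0.74). *Ptgds* was closest to *Kifc2* (0.75), the myelin gene *Mobp* (0.75) and the synaptic vesicle gene *Syp* (0.74), and *Ptger2* to *Fxyd5* (0.85), *Lrp1* (0.85) and *Agpat4* (0.82). The 3 *Ptger2* values were carried by the controls, with r = 0.97, 0.95 and 0.92 there. In LOXL2_KO they were 0.39, 0.47 and 0.49, and control 8 had 0 *Ptger2* counts.

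Per kb of exon, the order of levels began with *Ptgis*. Control medians were 28.9 CPM per kb for *Ptgis*, 10.6 for *Ptges2*, 3.55 for *Hpgd*, 3.07 for *Ptgs1*, 1.995 for *Ptges*, 0.483 for *Ptger4*, 0.320 for *Ptgds*, 0.189 for *Ptgs2*, 0.130 for *Ptger3* and 0.126 for *Ptger2*. In LOXL2_KO the order was the same except that *Hpgd* (9.23) came above *Ptges2* (9.01), in 7 of 12 libraries. *Ptges2* exceeded *Hpgd* in 8 of 8 controls, *Ptgis* exceeded its next gene in 6 of 8 controls and 12 of 12 LOXL2_KO libraries, and *Ptges* exceeded *Ptger4* in every library. Neighbours from *Ptger4* down to *Ptger2* changed places between libraries, with the upper gene ahead in 5 or 6 of 8 controls, and *Hpgd* was above *Ptgs1* in 5 of 8.

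**Figure D5:**
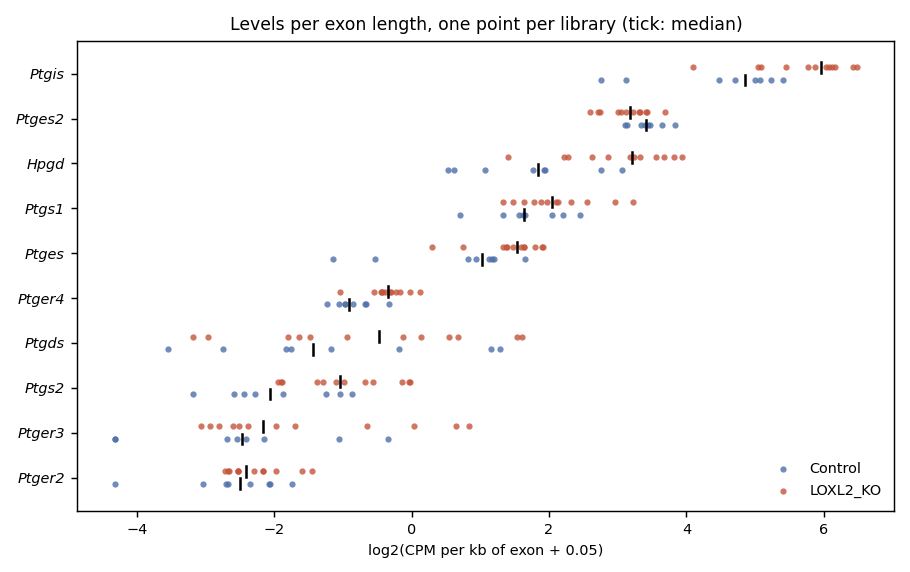
Level per kb of exon of each member in each library, as log2(CPM per kb + 0.05), with a tick at the group median and genes ordered by control median. *Ptgis*, *Ptges2* and *Hpgd* lie at the top, and the receptors and *Ptgs2* at the bottom.

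Of 39 further eicosanoid genes, 34 were tested, 6 were higher and 5 lower, and the median log2 fold change was 0.39. Over all genes tested, 12% were higher and 11% lower. Among 11 tested genes of arachidonate release, 1 passed: *Pla2g16*, a phospholipase known from adipose tissue, fell by 0.66 (SE 0.11, adjusted p = 0.0013), with all 12 LOXL2_KO values under the control median. The cytosolic phospholipase *Pla2g4a*, the enzyme best known for supplying arachidonate to COX-2 and named here after its value was seen, had a log2 fold change of 0.73 (SE 0.29, adjusted p = 0.0723). The most abundant of the role by control mean per kb was *Pla2g12a* (*Pla2g16* by control median), and its log2 fold change was -0.08 (SE 0.14, adjusted p = 0.730). Of 6 other terminal synthases, the thromboxane synthase *Tbxas1* rose by 1.35 (SE 0.27, adjusted p = 0.0022) and was above the control median in 12 of 12 libraries, and the haematopoietic prostaglandin D synthase *Hpgds*, known from mast cells and macrophages, rose by 1.10 (SE 0.34, adjusted p = 0.0250). *Akr1b3* and *Fam213b*, both linked to prostaglandin F synthesis, fell by 0.30 (SE 0.10, adjusted p = 0.0369) and 0.74 (SE 0.23, adjusted p = 0.0224). *Ptges3*, a co-chaperone with PGE2 synthase activity, also named after its value was seen, was at -0.04 (SE 0.09, adjusted p = 0.770). Mast cell markers summed to 2.22 to 20.6 CPM in controls and 5.82 to 190.0 CPM in LOXL2_KO (5 of 6 tested higher), and macrophage markers to 48.2 to 228 and 143 to 535 CPM (6 of 8 higher). The part of these cells in the synthase values was not tested.

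Transport and breakdown genes held 3 calls among 4, with 2 higher and 1 lower, where 23% of all genes tested passed. The prostaglandin transporter *Slco2a1*, which brings PGE2 into the cell for oxidation, rose by 1.05 (SE 0.25, adjusted p = 0.0058), and the reductase *Ptgr1*, which acts after the dehydrogenase, rose by 0.96 (SE 0.28, adjusted p = 0.0164). The related reductase *Ptgr2* fell by 0.43 (SE 0.09, adjusted p = 0.0028). None of 4 other prostanoid receptors tested passed, and the most abundant, the prostaglandin F receptor *Ptgfr*, was at 0.79 (SE 0.32, adjusted p = 0.0749). Of 9 lipoxygenase and leukotriene genes, the lipoxygenase *Alox5* rose by 1.22 (SE 0.42, adjusted p = 0.0382), the leukotriene receptor *Cysltr2* rose by 1.75 (SE 0.52, adjusted p = 0.0205) from 1 to 14 counts in controls, and the epoxide hydrolase *Ephx2* fell by 0.67 (SE 0.15, adjusted p = 0.0052). Leaving out 1 library ended the call of *Akr1b3* in 11 of 20 fits (-0.26, adjusted p = 0.0942 without control 8) and of *Alox5* in 7 of 20 (1.09, adjusted p = 0.0726 without control 8). Without control 8, *Hpgds* (0.99985, adjusted p = 0.0524) and *Fam213b* (-0.48, adjusted p = 0.0922) also missed the threshold, and the list had 7 calls in place of 11.

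Genes of the interleukin-1 and NF-kB route, known to induce *Ptgs2* and *Ptges*, held 4 tested genes out of 7 listed. *Nfkbia*, the NF-kB inhibitor and target gene, rose by 0.40 (SE 0.12, adjusted p = 0.0230), and the subunit gene *Rela* rose by 0.33 (SE 0.12, adjusted p = 0.0492), a call that 13 of the 20 fits without 1 library did not make. *Nfkb1* was at 0.14 (SE 0.07, adjusted p = 0.161) and the receptor *Il1r1* at 0.36 (SE 0.18, adjusted p = 0.153). *Il1b*, *Tnf* and *Il6* did not pass the filter on low counts and have no value from this fit. The LOXL2_KO libraries above the control median were 11, 9 and 3 of 12 for these genes. The study reports higher *Il1b* in the knockout by the DESeq2 Wald test.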

How the data were processed

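TMJ condylar heads of 20 mice were sequenced as paired-end RNA-seq. The authors mapped the reads to mm10 (per the labels) and deposited raw counts per gene from featureCounts 1.5.0-p3; the aligner, annotation release, strand use and treatment of multi-mapping reads are not given in the sources used here. Groups and replicate numbers came from the sample titles. Of 54532 gene identifiers, 54495 matched GENCODE M21 (GRCm38/mm10), which gave symbols, 1-based coordinates and union exon lengths.

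Counts were tested with edgeR 4.0.16 in R 4.3.3 (TMM scaling, filterByExpr, quasi-likelihood F-test, two-sided, Benjamini-Hochberg adjustment over 15984 genes, threshold 0.05). SEs come from the F statistic and the fold change. As alternatives, the Wald test of DESeq2 1.42.0 (the choice of the study) was run, and also other scalings and filters, a replicate block, marker scores as covariates and omission of libraries. CPM used TMM-scaled sizes, and log2 CPM a prior count of 2. A count of 3 is 0.0964 to 0.246 CPM, depending on the library; such floors cover counting error only. Within-group correlations used all 40320 pairings (8 controls) or 100000 resamples (12 LOXL2_KO), with Python 3.11.15 and scipy 1.17.1. On simulated counts with 200 of 15984 genes changed by 1.5 (log2), edgeR recovered 81% of them, with 5.81% false calls. DESeq2 recovered 87.5%, with 18.6% false calls. The simulation changed far fewer genes than passed in the data, and by more than the called members changed. These shares therefore give neither the power for those members nor the share of false calls in the data.

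Duplicate libraries were looked for and not found (smallest chi-square per degree of freedom 32.9 over 190 pairs). The labels name separate samples but no batch or sex, so p-values measure the spread between these samples. The study reports equal numbers of males and females in each group. Y chromosome markers summed to 107 to 194 CPM in controls 3, 7 and 8. They summed to 101 to 143 CPM in LOXL2_KO 3, 4, 5, 7, 8 and 9, and to at most 0.596 CPM in every other library. Among the controls, fewer libraries held this signal than the reported equal numbers would give. The reason was not tested. With the Y chromosome score as covariate, 3793 of 15984 genes passed. Named genes are the 10 members, the pathway genes that passed and the most abundant of each role, the inducer list, *Loxl2* and the 3 protein-coding genes of at least 5 CPM most correlated with each member; exceptions are named as such. The members, gene lists and tests were chosen with earlier results of these data known.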

Additional observations from a re-analysis of the deposited data

How the results depend on the processing

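Replicate numbers showed no clear pairing of the samples. The deviations of same-numbered libraries correlated at -0.52 to 0.24 over 8 pairs, with 3 pairs over 0.1, and 0 control libraries correlated best with their own number. These deviations also carry the tissue mixture, so the check cannot show that no batch was shared. With the replicate number as a block (16 libraries), 1725 genes, 0 members and 7 of the wider list passed, with *Ptgis* at 1.16 (adjusted p = 0.157), *Hpgd* at 1.36 (0.0815), *Ptger4* at 0.51 (0.0726) and *Ptgds* at -0.030. Without the block, the same 16 libraries gave *Ptger4* 0.53 (0.0571) and *Ptgds* -0.035. With the osteoclast score as covariate, 0 genes, members and wider-list genes passed, with *Ptgis* at 0.062, *Ptger4* at 0.58, and reversed values for *Hpgd* (-0.22), *Ptges2* (0.091), *Ptger2* (-0.056), *Akr1b3* (0.069), *Fam213b* (0.15), *Cysltr2* (-0.41), *Pla2g12a* (0.24), *Ptgfr* (-0.051), *Ptges3* (0.074) and *Nfkbia* (-0.054). With the skeletal muscle score, 436 genes, 0 members and 3 wider-list genes passed, with *Ptgis* at 0.58 (0.325), *Hpgd* at 0.40 (0.470), *Ptger4* at 0.57 (0.0943), *Ptges2* at 0.0037, *Pla2g12a* at 0.11 and *Ptges3* at 0.057. Alternatives chosen after seeing the data were the osteoblast and osteocyte score (794 genes, 0 members, 6 wider-list genes; *Ptgis* 0.33, *Hpgd* 0.50, *Ptger4* 0.54, *Pla2g12a* 0.026, *Ptges3* 0.0039), the fibroblast score (1950 genes, 2 members, 6 wider-list genes; *Ptger4* 0.41, *Ptgs1* -0.044, *Ptger3* -0.50), no controls 6 and 8 (1703 genes, 0 members, 6 wider-list genes; *Ptgis* 0.83, *Hpgd* 0.96, *Ptger4* 0.44) and no LOXL2_KO 4, 5 and 7 (2 members; *Ptger4* 0.43, *Ptger3* -0.20). Without a filter *Ptger4* was at 0.55 (0.0521), and DESeq2 gave *Ptgs2* 1.01 (0.0389). Scaling by library totals alone moved the median of all genes to 0.12, made 72.0% of 3037 calls higher (52.2% as reported) and put *Pla2g12a* at 0.041 and *Ptges3* at 0.10. Leaving out each library in turn gave 2551 to 4181 genes, 3 to 4 members and 7 to 13 wider-list genes, *Ptgs2* 0.88 to 1.24, *Pla2g12a* -0.13 to 0.0051 and *Ptges3* -0.085 to 0.0042. *Ptger2* had no value with a filter at a mean of 1 CPM. The cause of these changes was not tested. Low counts limit *Ptgs2*, *Ptgds*, *Ptger2* and *Ptger3*.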

Other observations

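Some genes of the route were listed but had too few counts for the filter of the edgeR fit. The cytokine genes *Il1b*, *Tnf* and *Il6* reached at most 0.292, 0.713 and 0.298 CPM in any control library and 0.990, 0.689 and 0.281 CPM in any LOXL2_KO library. The prostaglandin D receptor genes *Ptgdr* and *Ptgdr2* reached at most 0.150 and 0.292 CPM in controls and 0.114 and 0.450 CPM in LOXL2_KO. The lipoxygenase gene *Alox15* reached 1.84 CPM in a control library and 0.320 CPM in LOXL2_KO. These values come from at most 26 counts per library.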
